A study of Mus musculus with 50 samples.

Results

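The genes described here mark B cells and the plasma cells that B cells become. They are Ms4a1, Cd79a, Cd79b, Mzb1, Pou2af1, Ighm and Igkc, 7 of the 45792 rows of the count table. The rule takes them by name and uses no measured value. The table itself pairs 5 of them with a symbol, and Ighm and Igkc took theirs from a gene name table through their identifiers. RNA came from the liver, away from tumours or within them, of C3H/He mice killed at 48 weeks. Of the 49 libraries used, 12 were non-tumour livers of mice fed the control diet, 11 were those of mice fed the ALIOS diet (an American lifestyle diet rich in fat and sugar), 12 were tumours on the ALIOS diet, 1 was a tumour on the control diet, 8 were tumours on the ALIOS diet with DEN (diethylnitrosamine, a liver carcinogen whose dose is not given in the sources used here) and 5 were tumours on the control diet with DEN. The methods of the study give male mice for the pilot of its diets. They do not describe the mice given DEN, whose sex they therefore leave unstated. Non-tumour livers of mice given DEN were not analysed here, so a DEN tumour was set against livers that had the same diet and no DEN, and the tissue and the carcinogen cannot be told apart in such a comparison. The labels do not say which libraries come from the same mouse, and the p-values therefore measure the spread between these libraries, which may share animals.

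A B cell carries its antigen receptor on the surface. The receptor is an immunoglobulin of heavy and light chains that signals through the pair of proteins Cd79a and Cd79b encode, and Ms4a1 encodes CD20, a membrane protein of mature B cells. Resting B cells make heavy chains of the IgM class, from Ighm. After antigen and help from T cells they may switch the heavy chain to IgG or IgA, which uses another constant region gene and keeps the light chain. The coactivator encoded by Pou2af1 works with the Oct proteins on immunoglobulin promoters, and its level rises as B cells are activated. Plasma cells lose most of the surface receptor and CD20 and turn to the secretion of antibody, for which Mzb1 encodes a chaperone of the endoplasmic reticulum. IgA made as joined pairs with the J chain is the antibody of mucosal surfaces. In the liver, polymeric IgA is carried into the bile.

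Each library held between 23798251 and 45751398 counted reads, with a median of 32351263. A list of hepatocyte genes summed to between 79386 and 243599 CPM in the 49 libraries, where CPM are counts per 1000000 counted reads after TMM scaling, so hepatocyte transcripts were present in all of them. Tumour T1 was left out because its library held 1261231 counts on 3 kidney genes, against 149 at most in any other library. T24, a DEN tumour on the ALIOS diet, stood apart and had 6.37 CPM of Pigr, the lowest of the 49 libraries, and results that rest on it are given with and without it. The control diet tumour without DEN, T7, is a single library and is given as a value, with no test in the main analysis. It was counted among the tumours only in the alternative with both diets pooled, which set tumours of both diets against livers of both diets. In a piece of tissue, fewer cells of a type and less RNA per cell cannot be told apart.

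All 7 genes were found in the liver at low levels, and the immunoglobulin genes stood well above the others. Corrected for the length of their exons, the median level over the 49 libraries was 10.9 CPM per kilobase for Igkc, the kappa light chain (chr6:70726435-70726966, plus strand, GRCm38), and 8.82 for Ighm, the IgM heavy chain (chr12:113418558-113422730, minus strand). It was 0.404 for Cd79b (chr11:106311341-106314762, minus strand), 0.402 for Mzb1 and 0.282 for Cd79a (chr7:24897381-24902197, plus strand). The lowest levels were 0.116 for Pou2af1 (chr9:51213708-51240080, plus strand) and 0.0445 for Ms4a1 (chr19:11249675-11266241, minus strand). Counts were small for 5 of the genes, with medians of 9 reads per library for Ms4a1 and Pou2af1, 14 for Cd79a, 15 for Mzb1 and 18 for Cd79b, against 514 for Ighm and 186 for Igkc. Ms4a1 overlaps the antisense gene 4930526L06Rik, which had at most 2 counts, and Igkc overlaps Gm30211, which had at most 6. The annotation also places Pou2af1 over the sense intronic gene Gm47828 and Mzb1 over SPATA24 on the same strand, and the counts of these genes could include reads of the other.

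RefSeq promoters of GRCm38.p6 were matched for 2 of the 7 genes, Cd79a and Pou2af1, and they are shown because the levels of these transcripts were correlated across the livers, as described further on. The bases printed are those of the plus strand that lie before the first annotated start, chr7:24897247-24897380 for Cd79a and chr9:51213440-51213689 for Pou2af1.
Cd79a: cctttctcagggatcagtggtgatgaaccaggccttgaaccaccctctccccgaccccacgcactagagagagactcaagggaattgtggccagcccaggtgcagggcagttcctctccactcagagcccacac
Pou2af1: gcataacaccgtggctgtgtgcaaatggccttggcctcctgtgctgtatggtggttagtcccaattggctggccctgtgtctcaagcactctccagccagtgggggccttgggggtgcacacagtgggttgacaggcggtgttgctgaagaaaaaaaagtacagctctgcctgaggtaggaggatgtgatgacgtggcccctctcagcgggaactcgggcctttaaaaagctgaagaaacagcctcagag
The octamer ATGCAAAT, which the Oct proteins and the Pou2af1 coactivator bind, was looked for on both strands of the 300 bases from 250 before to 50 after each RefSeq start, together with the letters CCCNNGGG of the B cell factor Ebf1. The octamer was in 570 of 32851 promoters of the table (1.74%) and CCCNNGGG in 4491 (13.7%). Neither was in the windows of Cd79a or Pou2af1, so nothing is in capitals, and this says only that the letters are not in these windows.

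Where both passed the test, the kappa light chain was higher and the heavy chain of IgM lower in tumours than in livers, and Ms4a1, Cd79a and Cd79b passed no test. Igkc was higher in the tumours without DEN than in the livers on the ALIOS diet and in the DEN tumours on the control diet than in the control livers. Ighm was lower in all 3 comparisons of tumours with livers. Mzb1 and Pou2af1 passed the test in the DEN tumours of the control diet, and not in the tumours of the ALIOS diet. The comparisons share groups, since the ALIOS livers and each tumour group enter more than 1 of them, so they are not independent of each other.

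Genes were tested one by one in the whole table with edgeR's quasi-likelihood test, and called at a Benjamini-Hochberg adjusted p-value under 0.05 over all genes that passed a filter on low counts. In the tumours without DEN against the livers of the ALIOS diet, 2 of the 6 genes tested were called, where 52.8% of all genes were. In the DEN tumours against those livers, 1 of 7 was called, against 47.5% of all genes. In the DEN tumours of the control diet against the control livers, 4 of 7 were called, against 51.7% of all genes. A call was therefore common in any of these 3 comparisons, and the number of members called is not in itself a result about them.

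With diet none of the genes passed the test. In the non-tumour livers 0 of the 5 genes tested were called by edgeR and 0 by DESeq2, where 11.2% of all genes were called, and 1 had an unadjusted p-value under 0.05. Without the liver N13, 1 gene, Cd79b, was called. For diet in DEN tumours 0 of 7 were called by edgeR and by DESeq2, where 0.0134% of all genes were, and 3 had an unadjusted p-value under 0.05. Between the DEN tumours and the other tumours of the ALIOS diet 0 of 7 were called by edgeR and by DESeq2, 0 had an unadjusted p-value under 0.05, and 0% of all genes were called. Where the effect of diet in DEN tumours was tested against that in livers, 1 of 7 was called, Pou2af1, against 2.27% of all genes.

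**Figure D1:**
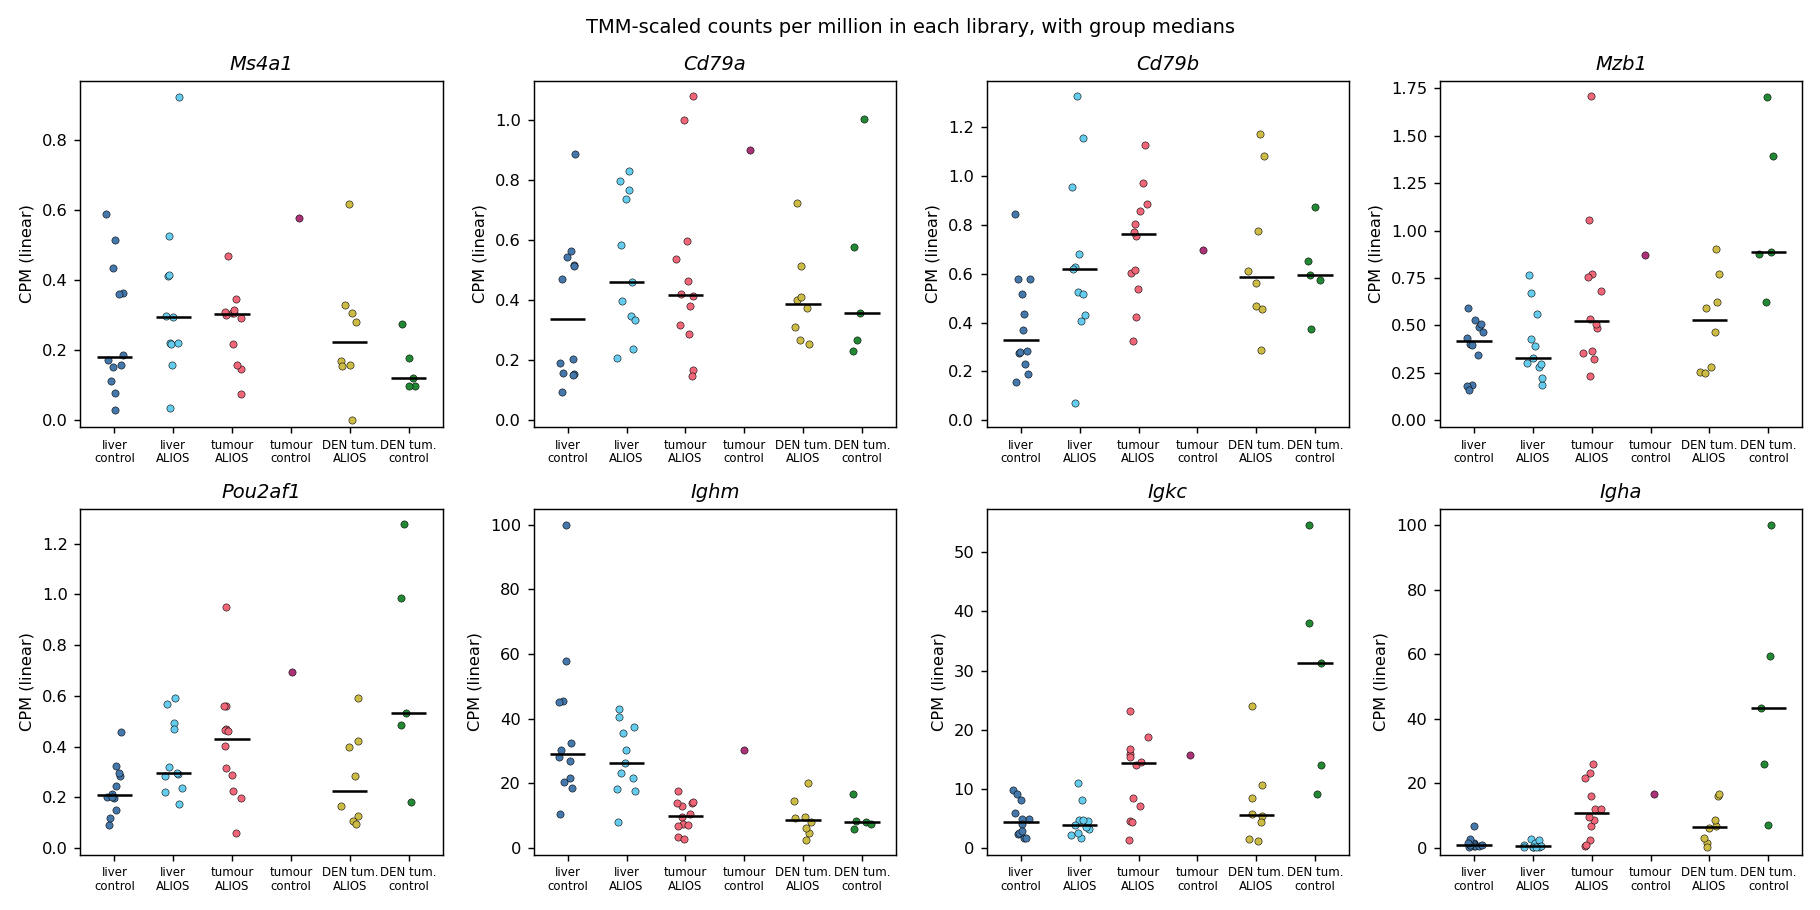
TMM-scaled read counts (CPM, linear axes from 0) of the 7 genes and of Igha, the IgA heavy chain, in each of the 49 libraries, with a point for each library and a bar at the median of each group. Igkc and Igha are highest in the 5 DEN tumours of the control diet (medians 31.3 and 43.5 CPM), while Ighm is higher in the livers (medians 29.1 and 26.2 CPM) than in the groups of several tumours.

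Ms4a1, which encodes CD20, was sparse everywhere. In the control livers it ranged from 0.0308 to 0.590 CPM and in the ALIOS livers from 0.0348 to 0.924 CPM, with a median of 0.294. Among the ALIOS tumours its range was 0.0751 to 0.469 CPM around a median of 0.304. The ranges of all groups overlapped, and T7 had 0.579 CPM. The DEN tumours of ALIOS mice reached from 0 (in T24) to 0.619 CPM, and those of control mice had 0.0971, 0.0988, 0.121, 0.178 and 0.275 CPM. The gene fell below the filter on low counts, and was not tested, for diet in the livers and for ALIOS tumours against livers. In the 5 comparisons where it was tested its adjusted p-value from edgeR was 0.300 or more, the log2 fold change nearest to a call being -0.64 (standard error, SE, 0.50) for the DEN tumours against the livers of the control diet.

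Cd79a, the alpha chain of the receptor's signalling pair, was measured at 0.0931 to 0.885 CPM in the control livers, with a median of 0.336, and at 0.209 to 0.828 CPM in the ALIOS livers, with a median of 0.461. The ALIOS tumours held both the lower end of these levels (0.147 CPM in T9) and the highest value of the series (1.08 CPM in T10), around a median of 0.416. On the control diet the DEN tumours had 0.230, 0.267, 0.356, 0.575 and 1.0 CPM. Groups overlapped in every comparison. The log2 fold change lay between -0.28 and 0.49 in the first 6 comparisons, and none was called. The sign of the smallest of them, -0.09 for ALIOS tumours against livers, changed with the scaling and the libraries used.

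Cd79b, the beta chain of that pair, had a median of 0.327 CPM in the control livers (0.159 to 0.842) and 0.619 CPM in the ALIOS livers (0.0697 to 1.32). Of the 11 ALIOS livers, 10 were above the control median, and 3 were above every control liver. Its log2 fold change with the ALIOS diet was 0.76 (SE 0.32), and the adjusted p-value from edgeR was 0.115, so the difference did not pass. One ALIOS liver, N13, had the lowest value of the series, and without it the log2 fold change was 0.88 (SE 0.27, edgeR adjusted p = 0.0314). On the ALIOS diet the tumours were not called against the livers and had medians of 0.763 CPM in the ALIOS tumours and 0.587 CPM in the DEN tumours on that diet. The DEN tumours on the control diet had 0.376, 0.575, 0.593, 0.652 and 0.874 CPM, all above the median of the control livers, with a log2 fold change of 0.69 (SE 0.32, edgeR adjusted p = 0.0796).

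Pou2af1, the coactivator of immunoglobulin genes, was measured at 0.0931 to 0.458 CPM in the control livers, with a median of 0.209. In the DEN tumours on the control diet it was at 0.182, 0.486, 0.534, 0.988 and 1.28 CPM, and 4 of these 5 tumours lay above every control liver. The log2 fold change was 1.64 (SE 0.35, edgeR adjusted p = 0.000633). This is about 3.12-fold, and it passed under each alternative tried and without each library in turn. Among the livers alone Pou2af1 was below the filter on low counts, so it may have entered this test through the tumours, where it was high. With no filter the log2 fold change was 1.61 (edgeR adjusted p = 0.00133). On the ALIOS diet the gene was not called in either comparison of tumours with livers. There the livers had a median of 0.294 CPM (0.174 to 0.593), the tumours without DEN 0.432 CPM (0.0588 to 0.95), and the DEN tumours 0.224 CPM (0.0936 to 0.593).

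The effect of diet on Pou2af1 in DEN tumours was also compared with that in livers. In the livers, where it was below the filter, 10 of the 11 ALIOS libraries were above the control median. Of the 8 ALIOS DEN tumours 7 were below the control diet median, and the log2 fold change was -1.33 (SE 0.51, edgeR adjusted p = 0.489), which did not pass. The difference between the 2 effects was -1.96 on the log2 scale (SE 0.51) and passed the test (edgeR adjusted p = 0.0342). The call was lost without N17, N19, T17, T21 or T25, with adjusted p-values up to 0.0825 in edgeR, and also without a filter on low counts (0.056) or with all groups in 1 fit (0.0508). It rests on counts of 3 to 51 reads per library.

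Mzb1 (chr18:35647267-35649367, minus strand), the chaperone of antibody secretion, was higher in the DEN tumours of the control diet than in the control livers, which had no DEN. These tumours had 0.623, 0.878, 0.889, 1.39 and 1.70 CPM, and the control livers ranged from 0.159 to 0.590 CPM around a median of 0.418, so the groups did not overlap. The share of all genes without overlap was not computed, and 51.7% of all genes were called in this comparison. The log2 fold change was 1.52 (SE 0.28, edgeR adjusted p = 0.00018), or 2.86-fold. In the ALIOS tumours without DEN the range was wide, from 0.234 to 1.71 CPM, and 10 of the 12 lay above the liver median of 0.327 CPM. There the difference was 0.68 on the log2 scale (SE 0.31) and just missed the threshold (edgeR adjusted p = 0.0676). It passed without N14, N19, T4 or T6, with an adjusted p of 0.0331 at the lowest. In edgeR it also passed with library totals as the only scaling (0.82, adjusted p = 0.0289), with both diets pooled (0.75, adjusted p = 0.00493) and with T1 added (1.45, adjusted p = 0.0152). With both diets pooled, T7 stood among the tumours and the control livers among the livers, so the mix of diets differed between the 2 sides. T1 is the library left out for its kidney genes. The difference did not pass in edgeR without the filter on low counts (0.71, adjusted p = 0.0909), nor in DESeq2, where the 2 members called were Ighm and Igkc. The DEN tumours on the ALIOS diet ranged from 0.249 to 0.905 CPM and were not called against the livers (log2 fold change 0.40, SE 0.31, edgeR adjusted p = 0.299). Diet moved Mzb1 by 0.03 (SE 0.26) on the log2 scale in the livers. With DEN, 7 of the 8 ALIOS tumours lay below the median of the control diet, and the log2 fold change was -1.08 (SE 0.36, edgeR adjusted p = 0.397).

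**Figure D2:**
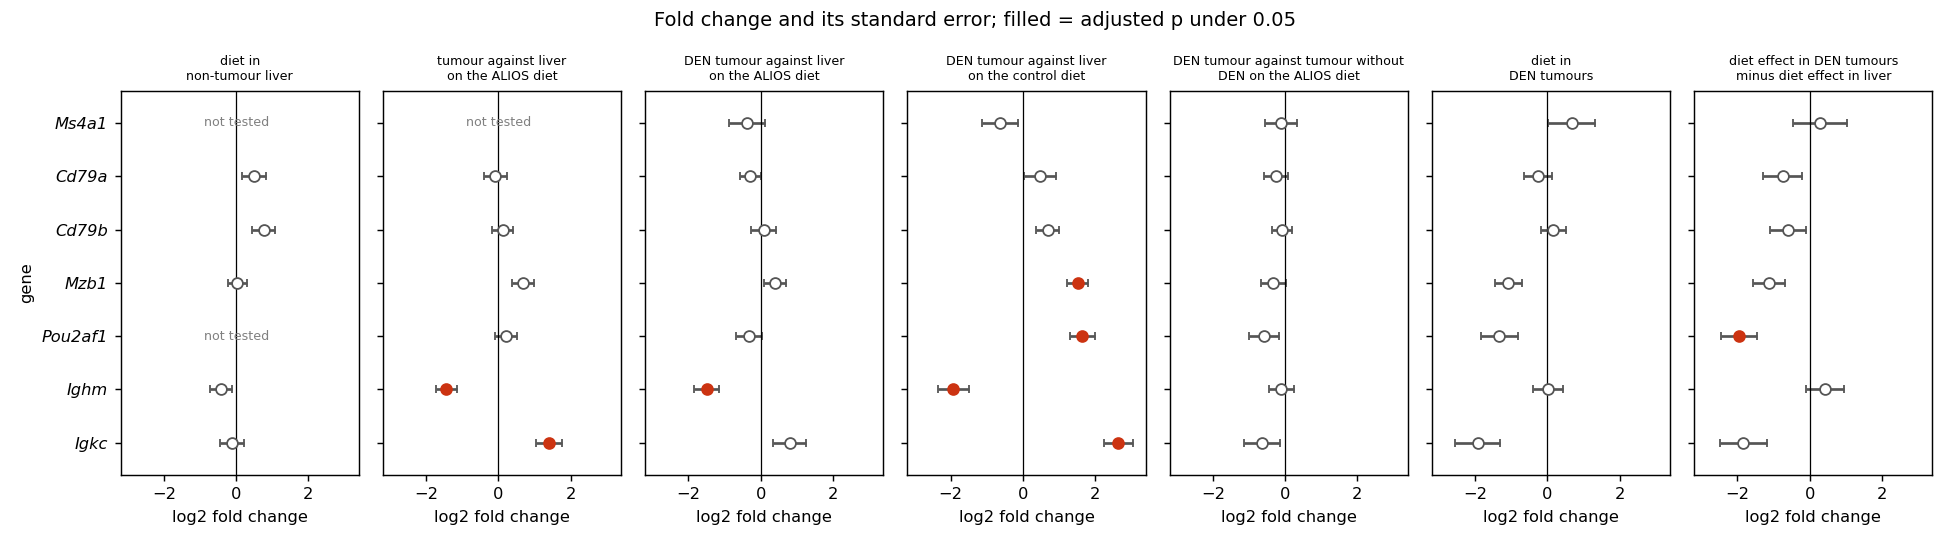
Log2 fold change of each gene (points, with bars of 1 standard error) in the 7 comparisons, a panel for each, with filled points for an adjusted p-value under 0.05 in edgeR and "not tested" where the gene fell below the filter on low counts. Ighm lies left of 0 in the 3 comparisons of tumours with livers (-1.44, -1.49 and -1.93), Igkc lies right of 0 in them (1.41, 0.81 and 2.64), and the surface genes Ms4a1, Cd79a and Cd79b have no filled point.

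Ighm, the constant region of the IgM heavy chain, was the most abundant of the heavy chain genes in the livers. It had a median of 29.1 CPM in the control livers, from 10.6 in N3 to 100 in N11, and 26.2 CPM in the ALIOS livers, from 7.96 to 42.9. Diet did not change it past the test in the livers (log2 fold change -0.42, SE 0.30, edgeR adjusted p = 0.360). The ALIOS tumours had a median of 10.0 CPM, from 2.85 to 17.5, and all 12 tumours lay below the liver median. The log2 fold change was -1.44 (SE 0.28, edgeR adjusted p = 0.000176), a level 2.71-fold lower than in the livers.

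The DEN tumours held as little of it. On the ALIOS diet they ranged from 2.48 to 20.1 CPM with a median of 8.69, all 8 below the liver median, and the log2 fold change was -1.49 (SE 0.35, edgeR adjusted p = 0.00165). On the control diet the 5 tumours had 5.90, 7.51, 8.00, 8.45 and 16.6 CPM, and 4 of them were below every control liver. This was a difference of -1.93 on the log2 scale (SE 0.43, edgeR adjusted p = 0.000909), or 3.80-fold lower. T7, the tumour of the control diet without DEN, was unlike the other tumours and had 30.4 CPM, within the range of the livers. These 3 calls held under each alternative and without each library in turn.

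Igkc, the kappa light chain, which can pair with any class of heavy chain, was low in the livers. Its median was 4.48 CPM in the control livers (1.63 to 9.90) and 3.89 CPM in the ALIOS livers (1.78 to 11, the highest in N17). The median of the ALIOS tumours was 14.4 CPM, from 1.35 in T9 to 23.1 in T3, and 7 of the 12 tumours lay above every ALIOS liver. The log2 fold change was 1.41 (SE 0.37, edgeR adjusted p = 0.00277), or 2.65-fold, and it was 2.88 with T1 added, whose library had 12419 counts of Igkc. T7 had 15.8 CPM.

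Among the DEN tumours the levels of Igkc were spread widely. On the ALIOS diet they ranged from 1.18 CPM in T16 to 24 CPM in T23 around a median of 5.64, and the log2 fold change against the livers was 0.81 (SE 0.46, edgeR adjusted p = 0.155). On the control diet the libraries had 9.14, 14.1, 31.3, 38.0 and 54.7 CPM, and 4 of the 5 lay above every control liver. There the log2 fold change was 2.64 (SE 0.40, edgeR adjusted p = 2.1e-05), the largest among the 7 genes, or 6.23-fold. All 8 ALIOS DEN tumours lay below the median of the control diet DEN tumours. Between diets the log2 difference in the DEN tumours was -1.93 (SE 0.62), and it was not called (edgeR adjusted p = 0.392) unless all groups were fitted together (adjusted p = 0.0461).

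These chains stood in different proportions in liver and tumour. In the livers the counts of Ighm exceeded those of Igkc in all 23 libraries. The ratio of the counts had a median of 6.41 on the control diet (2.71 to 37.9) and 5.61 on the ALIOS diet (2.25 to 20.0). It is not corrected for exon length, 1.886 kb for Ighm and 0.532 kb for Igkc, and so favours Ighm in every library. Equal counts are therefore not equal levels, and the ratio serves to compare groups. For the ALIOS tumours the median ratio was 0.898 (0.411 to 2.99), in the ALIOS DEN tumours 1.72 (0.546 to 4.22), and in the control diet DEN tumours 0.437 (0.137 to 0.646). T7 had a ratio of 1.92. The ranges of the livers and of the control diet DEN tumours did not overlap.

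**Figure D3:**
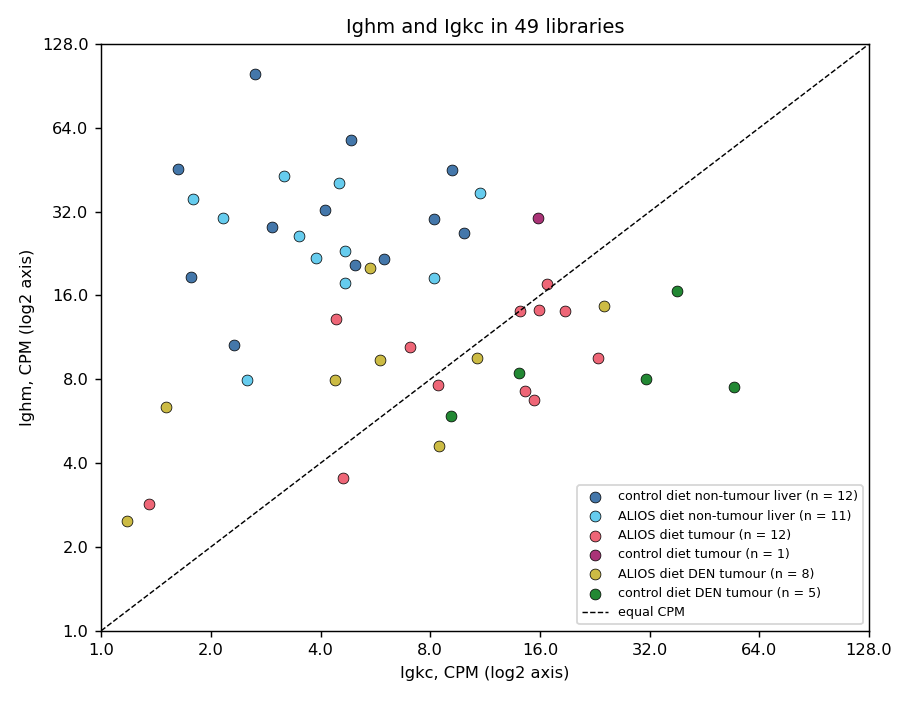
Ighm against Igkc in CPM (both axes on a log2 scale, not adjusted for gene length), with a point for each of the 49 libraries coloured by group and a dashed line at equal CPM. All 23 livers lie above the line, with ratios of Ighm to Igkc of 2.25 or more, and the 5 control diet DEN tumours lie below it, at 0.646 or less.

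Among the counts on heavy chain constant region genes, the share of Ighm was smaller in the tumours and that of Igha larger. Counts on the 8 constant region genes of the heavy chains were taken as 100% in each library, so that the shares do not depend on how much immunoglobulin RNA a library held or on its scaling. The shares are not corrected for exon length, and they serve to compare groups. Igha, the IgA constant region, took 4.72% ± 4.40 (SD, n = 12) of them in the control livers and 3.74% ± 3.57 (SD, n = 11) in the ALIOS livers. It took 42.4% ± 21.1 (SD, n = 12) in the ALIOS tumours, 36.6% ± 23.3 (SD, n = 8) in the ALIOS DEN tumours and 71.9% ± 15.5 (SD, n = 5) in the control diet DEN tumours. In T7 it was 30.6%, with a 95% Wilson interval of 28.6 to 32.8% that covers counting error only. Each of the 12, 8 and 5 tumours of these groups had a larger share than the median of the livers of its diet.

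Permutation tests over libraries were made of 4 such shares in 6 comparisons, 24 in all, with Benjamini-Hochberg adjustment over the 24. The share of Igha was larger by 38.7 percentage points in the ALIOS tumours than in the livers (permutation test, p = 2e-05, the smallest it can give, adjusted p = 0.00024). It was larger by 32.9 points in the ALIOS DEN tumours (exact permutation test, adjusted p = 0.000847) and by 67.1 points in the control diet DEN tumours (exact permutation test, adjusted p = 0.00155). Diet did not change it past the test in the livers (permutation test, difference -0.98 points, adjusted p = 0.677). In the DEN tumours the difference of the ALIOS from the control diet was -35.2 points (exact permutation test, adjusted p = 0.042), but this call was lost when any 1 of 10 of the 13 libraries was left out, with adjusted p-values up to 0.109.

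Ighm made up the other side of these shares. It was 90.8% ± 6.15 (SD, n = 12) and 89.0% ± 8.57 (SD, n = 11) of the heavy chain counts in the control and ALIOS livers, and the lowest of the 23 livers, N19, still had 70.7%. It was 44.5% ± 18.3 (SD, n = 12) in the ALIOS tumours, in the ALIOS DEN tumours 53.1% ± 22 (SD, n = 8) and in the control diet DEN tumours 21.3% ± 12.8 (SD, n = 5). The adjusted p-values were 0.00024 (permutation test), 0.0018 and 0.00155 (exact permutation tests) against the livers of the same diet. IgG genes took a large share in single libraries, 23.3% in the liver N19, 27.5% in the tumour T2, 24.5% in T3 and 33.8% in T23. Igkc took 81.5 to 95.8% of the light chain constant counts in every library, and this share passed no test with all libraries (smallest adjusted p = 0.0543, exact permutation test, for DEN tumours against livers on the control diet). That comparison passed without N3, N5, N7 or N12 (exact permutation tests, adjusted p from 0.0204 to 0.0427).

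**Figure D4:**
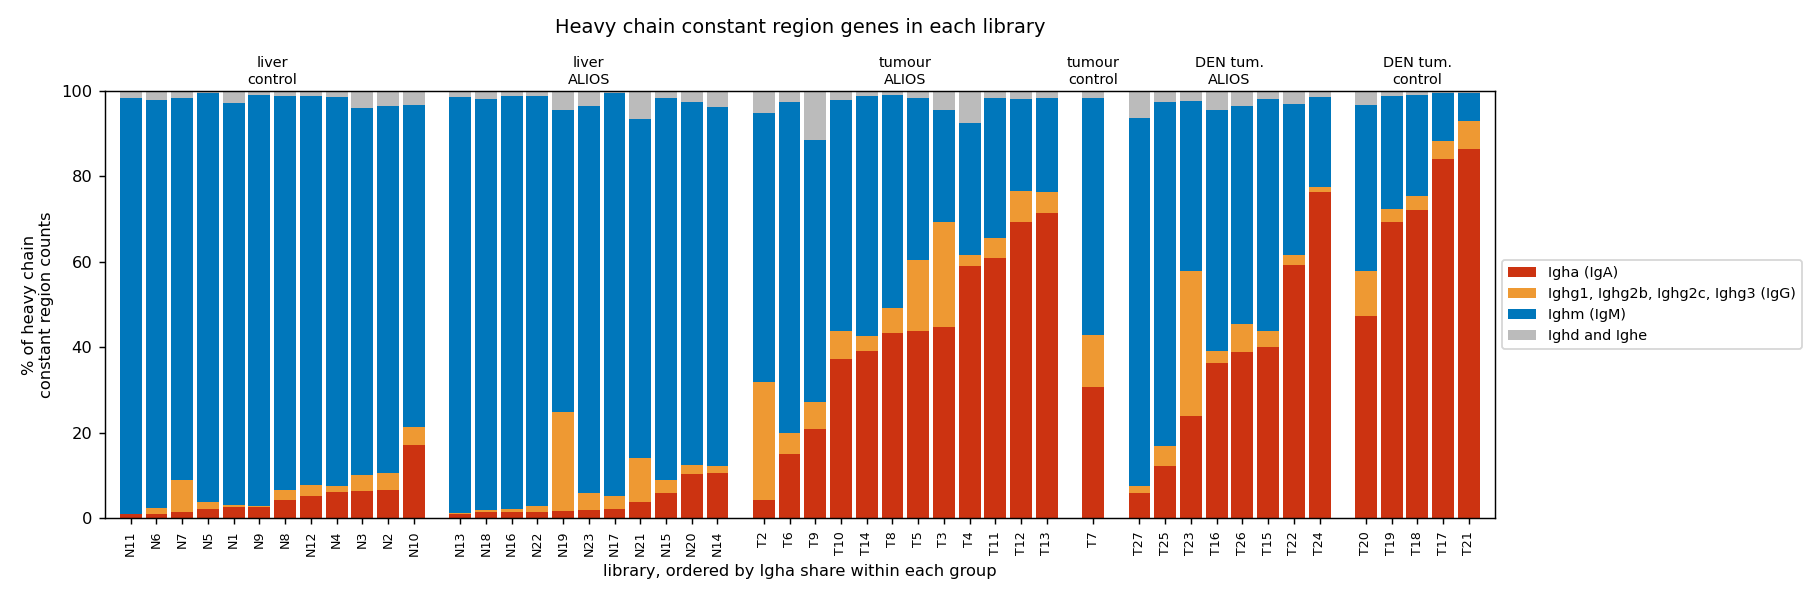
Share of the heavy chain constant region counts (bars to 100%) taken by Igha, the IgG genes, Ighm and the pair Ighd and Ighe in each of the 49 libraries, ordered within each group by the share of Igha. Ighm takes at least 70.7% in each of the 23 livers, whereas Igha takes at least 47.4% in each of the 5 control diet DEN tumours and from 4.29 to 71.4% in the ALIOS tumours.

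As an expression level, Igha was at 0.234 to 6.82 CPM in the control livers. The DEN tumours on that diet had 7.20, 25.9, 43.5, 59.5 and 100 CPM, above every control liver, and the log2 fold change was 4.92 (SE 0.53, edgeR adjusted p = 3.41e-07). In the ALIOS tumours 9 of 12 lay above every ALIOS liver (log2 fold change 3.52, SE 0.56, edgeR adjusted p = 1.95e-05), and in the ALIOS DEN tumours 6 of 8 did (2.91, SE 0.58, edgeR adjusted p = 0.000431). Of the other constant region genes, Iglc1 and Iglc2, light chains of the lambda kind, and the IgG genes Ighg1 and Ighg2b were higher in the control diet DEN tumours than in the livers, with log2 fold changes of 2.30, 1.42, 2.11 and 2.03. Ighg1 was not called without T21 (0.76, edgeR adjusted p = 0.421) or with all groups in 1 fit (adjusted p = 0.114). Among the livers 4 constant region genes passed the filter and here 9 did, so some entered through the tumours, where they were high.

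The V segments, which carry the antigen binding part, were counted on 218 rows, of which 190 had a count. Reads of near-identical segments may be split or lost, and the reference is of another mouse strain than C3H/He, so single segments are uncertain. The filter on low counts passed 4 segments among the livers and 27 once the control diet DEN tumours entered, so the segments tested there passed mostly through the group where they were high, and a count of those called is not given. Of 5 tested in the ALIOS tumours 1 was higher, Igkv1-110 (log2 fold change 1.41, SE 0.46, edgeR adjusted p = 0.0121). The segment with the most counts took 5.09 to 19.7% of the V counts in every library but 1, and no group differed in this share past the test. In that library, the ALIOS liver N17, a single segment, Igkv15-103, held 566 of 1210 V counts, or 46.8% (95% Wilson interval 44.0 to 49.6%), and N17 also had the highest Igkc and Jchain of its group.

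Of 14 genes listed for plasma cells, 13 were tested in each comparison with tumours. Among the livers alone 11 passed the filter on low counts, so some may have entered through the tumours, where they were high. The counts and medians of this list carry that limit. In the control diet DEN tumours 8 were higher than in the livers, where 27.3% of all genes were, with a median log2 fold change over the tested genes of 1.24, against 0.03 over all genes. They included Jchain, which joins IgA and IgM into polymers (2.70, SE 0.42, edgeR adjusted p = 2.49e-05), Slamf7, a surface receptor of plasma cells (1.90), Prdm1, the repressor that drives plasma cell differentiation (1.85), and its partner Irf4 (1.24). Derl3, which serves protein export from the endoplasmic reticulum, was also called (2.35), but not without T21 (0.94, edgeR adjusted p = 0.203). Xbp1, Fkbp11 and Tent5c were higher as well, and secretory cells in general, hepatocytes among them, use Xbp1. Over the 23 livers the medians were 177 CPM for Xbp1, 18.7 for Fkbp11 and 6.51 for Tent5c, against 0.398 for Mzb1. The part of cells other than plasma cells in Xbp1, Fkbp11 and Tent5c was not tested in any comparison. Tnfrsf17, the BCMA receptor of mature plasma cells, had 6 counts at most in any library and a median of 0 in every group.

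In the ALIOS tumours 5 of 13 plasma cell genes were higher (Fkbp11, Tent5c, Prdm1, Jchain and Xbp1) and Ell2 was lower, with a median of 0.22. Of all genes 26.9% were higher and 25.9% lower there, so the share of this list that was called is not in itself a result. Jchain rose by 1.14 on the log2 scale (SE 0.41, edgeR adjusted p = 0.0215), from a median of 3.33 CPM in the livers to 7.10 CPM. In the ALIOS DEN tumours 5 were higher (Derl3, Tent5c, Fkbp11, Prdm1 and Xbp1) and Eaf2 was lower, where 27.7% of all genes were higher and 19.8% lower. Prdm1 was not called with all groups in 1 fit (edgeR adjusted p = 0.0575). Derl3 rests on T24, which had 39.8 CPM, and its log2 fold change of 2.09 became -0.058 without that library. It was also not called without N17, N18 or N20 (edgeR adjusted p up to 0.0528). Jchain, like Pou2af1, passed the test of diet in DEN tumours against diet in livers, with a difference between the effect in DEN tumours and in livers of -2.40 (SE 0.63, edgeR adjusted p = 0.0352) that was lost without any of N17, N19, T17, T21, T23 or T25 and with all groups in 1 fit (adjusted p = 0.0523). Ly6d, of the B cell surface list, passed the same test (-3.15, SE 0.71, edgeR adjusted p = 0.0158) and kept its call under each setting and without each library in turn.

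Other B cell surface and signalling genes were called with diet in the livers. Of 20 listed, 11 were tested and 7 were higher on the ALIOS diet, where 6.73% of all genes were, with a median log2 fold change of 0.90 against -0.02 over all genes. The rest of the list fell below the filter on low counts, and none of the members tested was called. For Cr2, of the same list, 4 of the 11 ALIOS livers lay above the control median and 7 below. For the lineage factor Pax5 6 lay above it and 5 below. Cd22, a receptor that restrains B cell signalling, was higher by 1.03 (SE 0.24, edgeR adjusted p = 0.0101), Cd180 by 1.04, Cd72 by 0.90, Bank1 by 0.83, Btk by 0.81 and Cd52, found on most lymphocytes, by 1.35. Bank1 was not called with all groups in 1 fit (edgeR adjusted p = 0.0518). Ly6d, a surface protein used as a B lineage marker that epithelial cells also make, was higher by 3.30. Markers of other leukocytes moved with them: 5 of 6 pan-leukocyte genes, 7 of 10 macrophage genes and 4 of the 6 T and NK cell genes tested were higher on the ALIOS diet in the livers. The pan-leukocyte genes summed to 24.5 to 77.1 CPM in the control livers and 30.3 to 149 CPM in the ALIOS livers, and the T and NK cell genes to 2.89 to 14.2 and 4.53 to 34.9 CPM. The part of these cells in the B cell genes was not tested.

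In the tumours the same list split. Among ALIOS tumours Ly6d (3.75) and Blnk (0.83), an adaptor of receptor signalling, were higher and Bank1 (-1.08) and Vpreb3 (-1.19) lower, of 11 tested. In the control diet DEN tumours 6 of 13 were higher, where 27.3% of all genes were, led by Ly6d (7.59), Cr2, the complement receptor of mature B cells (2.80, SE 0.45, edgeR adjusted p = 3.71e-05), which was below the filter in the other comparisons with livers, and Blnk (1.32), while Bank1 fell by 0.99 on the log2 scale. Among the livers alone 11 of the list passed the filter on low counts. Some of the 13, Cr2 among them, may therefore have entered through the tumours, where they were high. Ly6d went from a median of 1.38 CPM in the control livers to 370 CPM in the control diet DEN tumours. Pax5, the factor that defines the lineage, had medians between 0.0890 and 0.207 CPM in the 5 groups of several libraries.

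Of 10 transcription factors of the lineage, 7 were tested in each comparison with livers. In the control diet DEN tumours 5 of 7 were higher, where 27.3% of all genes were (Bach2 1.66, Pou2f2 1.42, Ikzf3 1.38, Spib 1.16 and Tcf3 0.74 on the log2 scale). In the ALIOS DEN tumours 5 of 7 were higher and Foxo1 was lower (-0.39), where 27.7% of all genes were higher. Spib was not called without the filter on low counts in either comparison (edgeR adjusted p = 0.066 and 0.0798). In the ALIOS tumours 2 of 7 were higher, near the 26.9% of all genes, and in the livers diet raised Pou2f2 (1.12) and Ikzf3 (1.02). Of the germinal centre list, Mybl1 was higher in all 3 comparisons of tumours with livers (1.57, 2.01 and 3.16), and 3 of the 5 tested genes were higher in the control diet DEN tumours. Fas, a death receptor of the same list, was lower in the ALIOS tumours (-0.51, edgeR adjusted p = 0.000567) and in the control diet DEN tumours (-0.53, edgeR adjusted p = 0.034).

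Of 12 listed factors that feed or attract these cells, 5, 5 and 4 were tested in the ALIOS, ALIOS DEN and control diet DEN tumours against livers. In each 3 were higher and 1 lower. Of all genes, 26.9, 27.7 and 27.3% were higher there and 25.9, 19.8 and 24.4% lower, and so few tested genes give no share of their own. Tnfsf13b, which encodes the B cell survival factor BAFF, was below the filter in all 3. Tnfsf13 encodes APRIL, a survival factor of plasma cells, and was at a median of 1.02 CPM in the ALIOS livers, 21.6 CPM in the ALIOS tumours and 17.9 CPM in the ALIOS DEN tumours. Its log2 fold changes were 4.07 (SE 0.43), 3.95 (0.38) and 4.66 (0.23, control diet), although it shares its place with the antisense gene Tnfsf13os and with Tnfsfm13. Cxcl13, the chemokine that draws B cells into follicles, was higher by 1.91, 2.77 and 3.96, and Ltb, the lymphotoxin chain that organises lymphoid tissue, by 2.23, 2.80 and 5.10. Cxcl12, the chemokine that holds plasma cells in their niche, was lower by 0.99, 1.33 and 1.41 on the log2 scale. The adjusted p-values of these 12 results ranged up to 0.0144 in edgeR.

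Pigr, the receptor that carries polymeric IgA through the hepatocyte or bile duct cell into bile, was lower in the same 3 comparisons. Its median was 1422 CPM in the control livers and 1686 CPM in the ALIOS livers, against 618, 482 and 634 CPM in the ALIOS tumours, ALIOS DEN tumours and control diet DEN tumours. The log2 fold changes were -1.30 (SE 0.32), -1.50 (0.47) and -1.26 (0.26), with adjusted p-values of 0.00179, 0.0138 and 0.000464 from edgeR. Fcgrt, which encodes the neonatal Fc receptor that recycles IgG, was lower too (-0.69, -0.51 and -0.63), but not called in the ALIOS DEN tumours with library totals as the only scaling (-0.35, edgeR adjusted p = 0.117).

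Other leukocytes were read in the same libraries. The pan-leukocyte genes summed to 34.9 to 108 CPM in the ALIOS tumours, 31.2 to 170 CPM in the ALIOS DEN tumours and 32.4 to 88.6 CPM in the control diet DEN tumours. Of the 6, 3 (Coro1a, Ptprc and Laptm5) were higher in the control diet DEN tumours. Of 10 macrophage genes, 8 were lower in the ALIOS tumours, 2 in the ALIOS DEN tumours and 5 in the control diet DEN tumours. Of all genes, 26.9, 27.7 and 27.3% were higher in these 3 comparisons, in that order, and 25.9, 19.8 and 24.4% were lower. A count near these shares is not in itself a result about these cells. Of the T and NK cell genes, 1 of 14 was higher and 1 lower in the ALIOS tumours, 1 of 16 was higher in the ALIOS DEN tumours, and 5 of 9 were higher and 1 lower in the control diet DEN tumours. Among the livers alone 6 T and NK cell genes passed the filter on low counts, and 2 of the plasmacytoid dendritic cell genes given next. Some genes of both lists may therefore have entered through the tumours, where they were high. Genes listed for plasmacytoid dendritic cells, which share some transcripts with plasma cells, were also called, 3 of 4 tested being higher in each of the 3 comparisons, Runx2 by 2.94, 2.86 and 4.43 and Siglech by 1.41, 1.59 and 1.75. The fourth, Bst2, was lower in the ALIOS tumours (-0.43, edgeR adjusted p = 0.0158) and in the control diet DEN tumours (-0.41, edgeR adjusted p = 0.0444). The part of these cells in the changes of Igkc, Mzb1 and Pou2af1 was not tested.

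Across libraries of 1 tissue the surface genes of B cells varied together in the liver. Log2 CPM of each pair of the 7 genes were correlated over the 23 livers, with each diet centred on its mean, and over the 12 ALIOS tumours, 42 relations in all. In the livers 6 of the 21 pairs were called by Pearson's r and 6 by Spearman's rho, and these were the 6 pairs among Ms4a1, Cd79a, Cd79b and Pou2af1. Their r ranged from 0.60 to 0.78, the highest for Ms4a1 with Cd79a (r = 0.78, permutation p = 4e-05, adjusted p = 0.00168; rho = 0.76, permutation p = 0.00011, adjusted p = 0.00462). Without the 2 livers farthest from the median of Ms4a1 that r was 0.76. Cd79a with Pou2af1, whose promoters are printed above, had r = 0.63 (permutation p = 0.00164, adjusted p = 0.0115) and rho = 0.62 (adjusted p = 0.0236), and r was 0.56 without the 2 farthest livers. Ighm stood outside this group, with r from -0.13 to 0.33 with the other 6 genes, among them Igkc (r = 0.06). These genes share low counts in the same libraries, so part of the scatter is counting error.

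In the ALIOS tumours a different set of pairs passed. Pou2af1 with Igkc had r = 0.84 (permutation p = 0.00131, adjusted p = 0.011) and rho = 0.68 (adjusted p = 0.0766), and r was 0.68 without the 2 farthest tumours. Mzb1 with Pou2af1 had rho = 0.76 (adjusted p = 0.0352, permutation test) and r = 0.70 (adjusted p = 0.0536). Cd79b with Ighm (r = 0.74) and Pou2af1 with Ighm (r = 0.73) were called at an adjusted p of 0.032 by permutation, but these relations rest on 2 tumours, since r was 0.19 and 0.35 without the 2 farthest. Whether the correlations differ between liver and tumour was not tested.

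**Figure D5:**
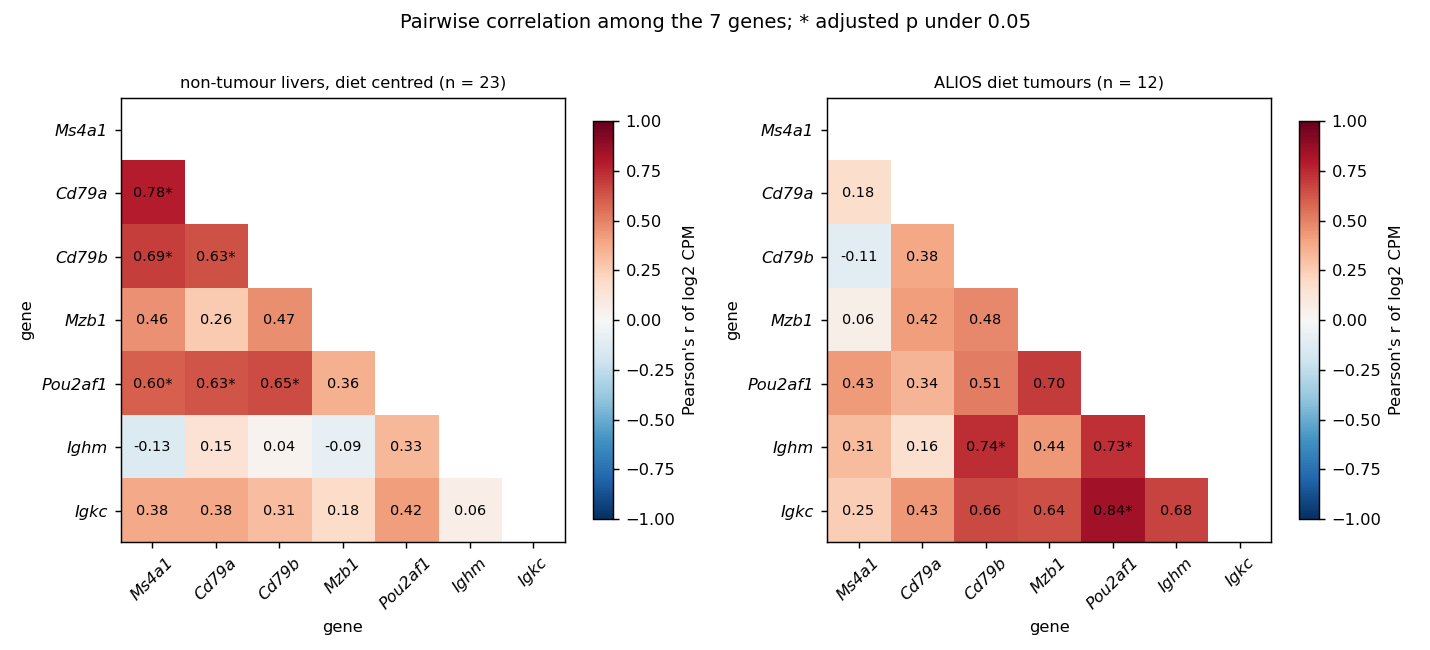
Pearson's r of log2 CPM for each pair of the 7 genes in the 23 non-tumour livers (left, each diet centred on its mean) and in the 12 ALIOS tumours (right), with an asterisk at an adjusted permutation p-value under 0.05. In the livers the 6 marked pairs are those among Ms4a1, Cd79a, Cd79b and Pou2af1 (0.60 to 0.78), and in the tumours the 3 marked pairs involve Ighm or Igkc (0.73 to 0.84).

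Genes whose levels went with those of the B cell members were sought among 17599 genes over the 49 libraries, after each group was centred on its mean, and are given as a description. With the mean z score of Ms4a1, Cd79a and Cd79b, the highest Pearson correlations reported here were those of the chemokine receptor Ccr2 (0.65), Cxcr5, the receptor for Cxcl13 on B cells (0.64), Ptpro (0.64) and Nfkbid (0.62). With the mean z score of Mzb1 and Igkc they were those of Jchain (0.63), Arrb2 (0.56), Il3ra (0.56), Speg (0.55) and Limd2 (0.55). The points share library depth and composition, and the highest of so many correlations is high by selection.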

How the data were processed

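Poly(A) RNA of non-tumour liver and liver tumours was sequenced as stranded paired reads. The authors mapped the reads to mm10 with STAR in 2 passes, counted them over Gencode M6 exons with HTSeq and deposited raw counts per gene, the unit used here. Tool versions and the strand option are not given in the sources used here. Multiply mapped reads of near-identical immunoglobulin segments may be lost, and the reference is not of the C3H/He strain. From the deposited counts, TMM-scaled CPM (counts per 1000000 counted reads) were computed in edgeR 4.0.16 (R 4.3.3), with a prior count of 2 for log2 values. Each of the 7 comparisons was fitted on its own libraries over all genes that passed filterByExpr (minimum count 10), with edgeR's quasi-likelihood test and Benjamini-Hochberg adjustment. The standard errors given with edgeR results were worked back from that test. Each is the absolute log2 fold change divided by the square root of the test's F statistic. Shares of immunoglobulin counts and correlations were tested by permutations written in numpy 2.4.6. Shares were tested exactly where a group had fewer than 10 libraries and with 100000 resamples otherwise. Correlations were tested with 100000 resamples throughout. Ranks and Wilson intervals came from scipy 1.17.1. Intervals cover counting error only. The steps were tested on simulated data. Alternatives were DESeq2 1.42.0, library totals alone, no filter, all groups in 1 fit, T1 added, T24 left out, both diets pooled and each library left out. The members and gene lists were chosen with earlier results of these data known. Named genes are the members, the immunoglobulin, B cell surface and plasma cell genes, up to 3 called genes of each other list with the largest change, and the genes most correlated with the members, and Spib, Tcf3, Foxo1, Cxcl12 and Tnfsf13b were named beyond this rule after their values were seen. A gene that this rule would name is not reported here.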

Additional observations from a re-analysis of the deposited data

Results flagged for a closer look

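In the DEN tumour T23 on the ALIOS diet, the most counted V segment, of the kappa chain, took 15.6% of the V counts (84 of 538, 95% Wilson interval 12.8 to 18.9%), far from the 5.70 to 9.75% of the other libraries of its group. Among the 26 groups of values searched in this way 1 library stood out, and chance gives about 1.3.

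The difference between the effect of diet on Pou2af1 in DEN tumours and that in livers was -1.96 on the log2 scale and passed its own test (adjusted p = 0.0342 from edgeR). The call was lost without N17, N19, T17, T21 or T25, and also without a filter on low counts or with all groups in 1 fit. Among the livers alone the gene was below that filter, so it may have entered this test through the tumours, where it was high.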

How the results depend on the processing

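No paired analysis was possible because the numbers in the labels run over all libraries of a tissue and the groups share none. The calls of Ighm, Igkc, Mzb1 and Pou2af1 in comparisons of tumours with livers held under each alternative. With both diets pooled, 4 members were called in tumours against livers instead of 2. There T7 joined the tumours and the control livers joined the livers, so the mix of diets differed between the 2 sides. With all groups in 1 fit, 1 was called for diet in DEN tumours (Igkc) and 0 for the difference between diet effects, as also without a filter (0). Leaving out 1 library gave 0 to 1 called members for diet in livers, 2 to 3 for ALIOS tumours, 1 for ALIOS DEN tumours and 4 to 5 for control diet DEN tumours against livers. It gave 0 for DEN against other tumours and for diet in DEN tumours, 0 to 2 for the difference between diet effects, and 6 to 9 called shares instead of 8.

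Small log2 fold changes that were not called changed sign, and so did the called change of Derl3 in ALIOS DEN tumours. Cd79a in ALIOS tumours was 0.11 with library totals, 0.27 with T1 added and 0.26 with both diets pooled. Without T24, Cd79b was -0.11 in ALIOS DEN tumours against livers and -0.0086 for diet in DEN tumours, and Ms4a1 was 0.085 in DEN against other tumours. Derl3 in ALIOS DEN tumours, called in the main test with a log2 fold change of 2.09, was -0.058 without T24 and -0.062 in DESeq2. Leaving out 1 library, Mzb1 with diet in livers ranged from -0.11 to 0.11 and Igkc from -0.34 to 0.039. In ALIOS tumours Cd79a ranged from -0.25 to 0.027 and Cd79b from -0.011 to 0.26, and in ALIOS DEN tumours Cd79b ranged from -0.11 to 0.21 and Derl3 from -0.058 to 2.28. Between DEN and other tumours Ms4a1 ranged from -0.45 to 0.085, Cd79b from -0.25 to 0.026 and Ighm from -0.36 to 0.045. For diet in DEN tumours Cd79a ranged from -0.43 to 0.19, Cd79b from -0.0086 to 0.31 and Ighm from -0.23 to 0.32, and for the difference between diet effects Ms4a1 ranged from -0.069 to 0.60. The cause was not tested. Low counts of Ms4a1 and Pou2af1, with medians of 9 reads, limit what these libraries can show.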
